A study of Mus musculus and Ochotona curzoniae and Rattus norvegicus with 18 samples.

Results

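The genes described here encode succinate dehydrogenase (respiratory complex II), its assembly factors, and the nuclear-encoded parts of ATP synthase (complex V). They were taken by a rule on gene symbols that also covers complexes III and IV and cytochrome c. A symbol had to occur once in the pika table and once, in upper case, among the mouse genes. The rule gave 23 genes, 8 with SDH symbols and 15 with ATP5 symbols, out of 14418 genes joined between the 2 species. Its symbols for complexes III and IV and cytochrome c entered no join and are not analysed here, so the results below are on complexes II and V alone. A further 2 ATP5 symbols of the pika table had no identical mouse symbol and are given at the end.

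The libraries came from cultured fibroblasts of the Tibetan pika (Ochotona curzoniae), a small high-altitude relative of rabbits, and of the C57BL/6J mouse, with 3 libraries each. The labels give the tissue of both as epidermis, no strain for the pika, and no age, time of collection or genetic change for either species. All cells grew in the same medium with 10% serum under 5% CO2 and were lysed at 90% confluency. The 3 rat and 3 rabbit libraries and the 6 ChIP-seq samples of the series were not used. No label states whether each library had its own animal or culture, and p-values therefore measure the spread between libraries, which may be technical. Species, genome and gene annotation cannot be told apart in this design.

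Complex II oxidises succinate to fumarate in the tricarboxylic acid cycle and passes the electrons to ubiquinone. SDHA carries the flavin, SDHB the iron-sulfur clusters, and SDHC and SDHD anchor both in the inner mitochondrial membrane. ATP synthase lets protons flow back through a membrane ring of c subunits, which turns a central stalk inside the F1 head, where ATP is made. A peripheral stalk holds the head still. The c subunit comes from several nuclear genes whose mature proteins are the same and whose import sequences differ.

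The upstream sequences of the 3 c subunit genes (ATP5G1, ATP5G2 and ATP5G3) in the mouse are shown because one mature protein is made from separate promoters, and that of Atp5l because this gene and Atp5g1 had the largest fold changes below. Each is the 250 bases before a RefSeq start in GRCm38.p6, 5′ to 3′, which need not be the outermost start of the gene. The gene spans end at 96075694 for Atp5g1 and at 73912464 for Atp5g3, both on the minus strand. The Atp5g1 window therefore lies partly inside its gene span, and the Atp5g3 window wholly inside. Some windows of the other genes counted below also lie inside a gene span. Capitals mark the E-box CACGTG, which clock activators such as CLOCK with BMAL1 can bind, the ETS core CCGGAAG, read by GABPA, and the core motif of the factor NRF1, each on either strand.
Atp5g1, chr11:96075632-96075881, minus strand: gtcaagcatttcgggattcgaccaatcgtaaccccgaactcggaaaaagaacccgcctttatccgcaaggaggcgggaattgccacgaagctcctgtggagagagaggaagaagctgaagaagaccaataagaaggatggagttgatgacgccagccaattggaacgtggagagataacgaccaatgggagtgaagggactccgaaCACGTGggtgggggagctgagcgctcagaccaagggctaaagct
Atp5g2, chr15:102671048-102671297, minus strand: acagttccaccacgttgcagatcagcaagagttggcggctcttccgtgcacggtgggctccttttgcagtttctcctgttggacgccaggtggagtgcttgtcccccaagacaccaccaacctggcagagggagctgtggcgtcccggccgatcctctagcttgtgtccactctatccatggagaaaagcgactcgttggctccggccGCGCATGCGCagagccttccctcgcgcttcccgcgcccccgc
Atp5g3, chr2:73911327-73911576, minus strand: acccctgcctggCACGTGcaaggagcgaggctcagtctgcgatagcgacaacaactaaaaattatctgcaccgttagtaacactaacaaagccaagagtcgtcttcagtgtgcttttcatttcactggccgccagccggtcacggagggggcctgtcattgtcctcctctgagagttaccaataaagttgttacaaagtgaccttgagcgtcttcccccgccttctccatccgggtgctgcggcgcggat
Atp5l, chr9:44920743-44920992, minus strand: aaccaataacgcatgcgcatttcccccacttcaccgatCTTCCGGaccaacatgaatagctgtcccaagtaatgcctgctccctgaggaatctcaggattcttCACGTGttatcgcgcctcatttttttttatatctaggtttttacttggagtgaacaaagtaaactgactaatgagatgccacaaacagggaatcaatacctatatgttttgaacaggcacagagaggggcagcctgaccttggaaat
The Atp5g1 and Atp5g3 windows held an E-box, Atp5g2 an NRF1 core, and Atp5l an E-box and an ETS core. RefSeq windows were counted for 21 of the 23 genes, with 24 windows in all. No window of SDHC or ATP5A1 entered this count, so the shares below leave these genes out. The windows of all genes may still include theirs, so the sets compared may differ in this respect. The E-box was in 4 of the 24 (16.7%), against 6.02% of 32851 windows of all genes. The ETS core was in 7 (29.2%, against 6.91%) and the NRF1 core in 5 (20.8%, against 3.74%). The hypoxia-response cores ACGTG and GCGTG were each in 9 windows (37.5%), against 16.6% and 28.2% of all windows. An E-box contains ACGTG, so these counts overlap, and the median G and C content was 57.4% in the windows of these genes and 52.4% in all. These shares were not tested, and a match describes letters and not a bound site.

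Levels are rescaled FPKM (fragments per kilobase of gene model and 1000000 fragments), set so that the 14418 joined genes of a library sum to 1000000. Pika was set over mouse on the scale of log2(rescaled FPKM + 1), with limma-trend over all 10348 tested genes. Calls needed a Benjamini-Hochberg adjusted p under 0.05 together with a log2 fold change of at least 1 in size. All 23 genes were above 0 in all 6 libraries, and all 23 passed the filter of a mean of 1 FPKM in either species. Read totals were 8159478, 7703576 and 8481030 in the pika libraries and 5758950, 3663102 and 4742265 in the mouse libraries.

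Of the 15 ATP5 genes 10 were called higher in pika and none lower, and of the 8 SDH genes 2 were called higher and 2 lower. By limma-trend, 12 of the 23 genes were called higher in pika, 2 lower and 9 were not called. Over all tested genes, 28.7% were called higher, 23.5% lower and 52.2% in either direction. The median log2 fold change was 1.08 for the 23 genes and 0.21 for all tested genes. Each gene's 3 pika libraries lay wholly above or below its 3 mouse libraries, but the same was true of 89% of all tested genes. Without a fold minimum all 23 had an adjusted p under 0.05, as had 88.6% of all genes. Without division by gene length, 6 of the 23 were called higher and 2 lower, against 26.1% and 27.6% of all tested genes (53.7% in either direction). Of the ATP5 genes 4 of 15 (26.7%) were then called higher. The share called higher was then at the background. These counts are uncertain, because the recovered lengths of some of the 23 genes may be too short, as given below. ATP5A1, among the 6 called higher, may be such a case. The value without gene length is given below for the 23 genes and for other genes that lost their call. Scaling also mattered: 10 of the 23 were called higher with median-of-ratios scaling, which moved the median of all genes to 0.04, and 18 in FPKM without rescaling, which moved it to 1.29. Without rescaling SDHD, SDHAF1, SDHAF2 and ATP5S changed sign.

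**Figure D1:**
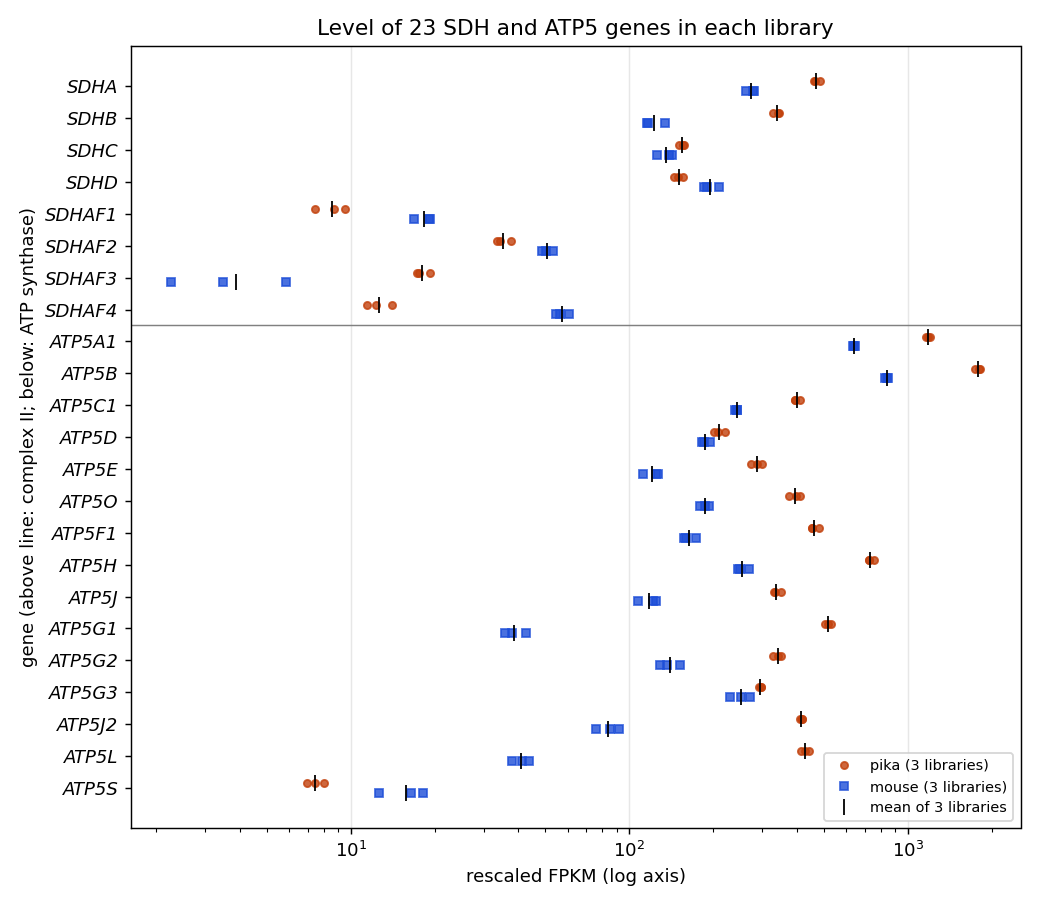
Level of each of the 23 genes in rescaled FPKM (log axis) in the 3 pika libraries (circles) and the 3 mouse libraries (squares), with the mean as a bar. Libraries of a species lie close together; ATP5G1 averaged 517 in pika and 38.7 in mouse, while SDHAF4 averaged 12.6 in pika and 57.3 in mouse.

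Among the complex II subunits only SDHB was called. SDHB, on mouse chromosome 4 from 140961271 to 140979198 (GRCm38.p6), was at 327, 345 and 341 in the pika libraries and at 116, 135 and 116 in the mouse libraries. All pika libraries lay far above the mouse libraries, and the log2 fold change was 1.46 (SE 0.06, adjusted p = 1.34e-08 by limma-trend). This call also held without division by gene length, with a log2 fold change of 1.36. SDHA was at 462, 483 and 459 in pika against 277, 261 and 279 in mouse, and its log2 fold change of 0.78 stayed under the fold minimum. Without gene length it was 0.09, an uncertain value because the recovered pika length may be too short, as given below.

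Both membrane anchors differed by less than the fold minimum. SDHC was at 156, 157 and 151 in pika, against 142, 126 and 138 in mouse (log2 fold change 0.19, 95% interval 0.07 to 0.31). SDHD was at 149.7, 145 and 156 in pika, against 210.5, 185 and 189.7 in mouse (-0.37, 95% interval -0.50 to -0.24). For both anchors the gene models were of nearly equal length in the 2 species, with 1517 bases in pika and 1625 in mouse for SDHC, and 1298 and 1231 for SDHD. On the scale without gene length SDHC was at 1.13, called higher, and SDHD at 0.74. Division by such lengths changes the ratio between species little, if the recovered lengths are right. How much of the move comes from the scaling was not tested. The reads are scaled per library over all joined genes, whose mouse models were in the median 2.25 times as long as the pika models, so genes with nearly equal models stand higher in pika on that scale.

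The balance of the complex II subunits differed, which no scaling of a library can change. SDHB made up 30.4% ± 0.489 of the summed FPKM of the 4 subunits in pika and 16.9% ± 1.88 in mouse (SD, n = 3 each). SDHD made up 13.6% ± 0.656 in pika and 26.9% ± 1.17 in mouse. The ratio of SDHB to SDHA was 0.707, 0.714 and 0.743 in the pika libraries and 0.419, 0.515 and 0.416 in the mouse libraries. The order by level was SDHA, SDHB, SDHC, SDHD in pika, where SDHC and SDHD overlapped between libraries, and SDHA, SDHD, SDHC, SDHB in mouse, where SDHC and SDHB overlapped. The 4 together summed to 1110 ± 18.3 in pika and 725 ± 20.1 in mouse, 1.53 times as much. These shares still depend on the length of each gene model.

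The complex II assembly factors went in both directions. SDHAF4, which binds SDHA once its flavin is attached, was at 14.1, 11.4 and 12.4 in pika, against 56.5, 54.7 and 60.8 in mouse. It was called lower in pika (log2 fold change -2.10, SE 0.10, adjusted p = 3.18e-08 by limma-trend), also without gene length (-1.36). SDHAF1, which helps to insert iron-sulfur clusters into SDHB, was at 7.44, 8.72 and 9.53 in pika, against 16.8, 19.2 and 19.1 in mouse. Its log2 fold change of -1.02 lay at the fold minimum, and the call was lost without pika replicate 1 (-0.94), mouse replicate 2 (-0.99) or mouse replicate 3 (-0.99). It rested on 31 pika and 121 mouse reads, and was called lower without gene length too (-2.37). These reads and this last value are uncertain because the recovered pika length may be too short, as given below.

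SDHAF3, which acts with SDHAF1 on SDHB, was called higher. It was at 19.3, 17.3 and 17.6 in pika, against 3.48, 2.27 and 5.87 in mouse (log2 fold change 2.03, SE 0.24). It rested on 56 pika reads and 54 mouse reads, and the mouse model was 18.5 times as long as the pika model. Without gene length it changed sign (-0.66). The reads, the length ratio and this sign change are uncertain because the recovered pika length may be too short, as given below. SDHAF2, which is needed to attach the flavin to SDHA, was at 34.3, 37.7 and 33.6 in pika, against 50.3, 53.3 and 48.6 in mouse (-0.52; -0.75 without gene length). Of the 4 factors, 1 was called higher, 2 lower and 1 was not called. Summed, they were at 74.5 ± 1.21 in pika and 130.3 ± 3.72 in mouse.

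ATP synthase subunits were called higher in 10 of 14 (71.4%), with none lower and 4 not called. Beside this count and those of the parts below stand 28.7% called higher and 23.5% called lower over all tested genes. The median log2 fold change of the 14 subunits was 1.26. Together they summed to 7775 ± 79.4 in pika and 3303 ± 13.2 in mouse (SD, n = 3 each), 2.35 times as much. In bulk RNA, fewer cells of one kind and less RNA per cell cannot be told apart. Without gene length 4 of the 14 (28.6%) were called higher and none lower, against 26.1% and 27.6% of all tested genes. The median was then 0.73 against 0.04 over all tested genes. The 4 called were ATP5A1 (3.53, uncertain as given below), ATP5C1 (2.15), ATP5G1 (2.02) and ATP5G3 (1.48).

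Of the 5 genes of the F1 head and central stalk, 2 were called higher and none lower. ATP5B, the catalytic beta subunit and the highest of the 23 genes in both species, was at 1794, 1813 and 1743 in pika, against 848, 825 and 839.7 in mouse. Its log2 fold change of 1.09 (SE 0.03) was just past the minimum. ATP5A1, the alpha subunit and second in both species, was at 1177, 1198 and 1164 in pika, against 635, 637 and 643 in mouse (0.89, not called). Without gene length ATP5B lost its call (0.93), and ATP5A1 was at 3.53, an uncertain value for the reason given below. The head holds alpha and beta in equal number, and the ratio of ATP5B to ATP5A1 was 1.51 ± 0.0136 in pika and 1.31 ± 0.0210 in mouse. In the central stalk the gamma subunit ATP5C1 (0.71) and the delta subunit ATP5D (0.16) were not called, and without gene length they were at 2.15, called higher, and 0.00. The epsilon subunit ATP5E was called higher, at 287, 300.1 and 274 in pika against 126, 124 and 112 in mouse (1.24; 0.26 without gene length). The F1 genes together were at 3858 ± 65.8 in pika and 2026 ± 6.83 in mouse.

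All 4 measured peripheral stalk genes were called higher and had close fold changes. ATP5H, subunit d, was at 752, 722 and 725 in pika, against 246, 268 and 250.1 in mouse (log2 fold change 1.52, SE 0.04). ATP5J, the coupling factor F6, was at 332, 329.6 and 350.1 in pika, against 124, 107 and 122 in mouse (1.51). ATP5F1, subunit b, averaged 461 ± 15.2 in pika and 164 ± 8.99 in mouse (1.49), and ATP5O, which joins the stalk to the head, 394 ± 18.1 in pika and 186 ± 7.13 in mouse (1.08). The stalk genes together were 2.67 times as high in pika. None of the 4 was called without gene length, where ATP5F1 was at 0.73, ATP5O at 0.55, ATP5H at 0.37 and ATP5J at -0.16. The values of ATP5H and ATP5J on that scale are uncertain because their recovered pika lengths may be too short, as given below.

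Of the membrane subunits f and g, both were called higher by large folds. ATP5L, subunit g, was at 411, 426 and 443 in pika, against 43.5, 41.1 and 37.8 in mouse (log2 fold change 3.36, SE 0.06, adjusted p = 6.85e-11 by limma-trend). ATP5J2, subunit f, was at 415, 417 and 409.8 in pika, against 91.6, 75.8 and 85.0 in mouse (2.29, SE 0.06). Their mouse models were 12.9 and 7.02 times as long as the pika models, 6443 against 500 bases for ATP5L. Without gene length the values were 0.74 and 0.53, and neither was called. ATP5S, coupling factor B, was below 0 by FPKM. It was at 7.47, 7.99 and 6.96 in pika, against 18.2, 12.7 and 16.4 in mouse (-0.97, not called). It changed sign without gene length (0.58) and without rescaling (0.17). It was called lower with median-of-ratios scaling (-1.13), TMM scaling (-1.05) and a pseudocount of 0.1 (-1.05), and without pika replicate 2 (-1.02) or mouse replicate 2 (-1.11).

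**Figure D2:**
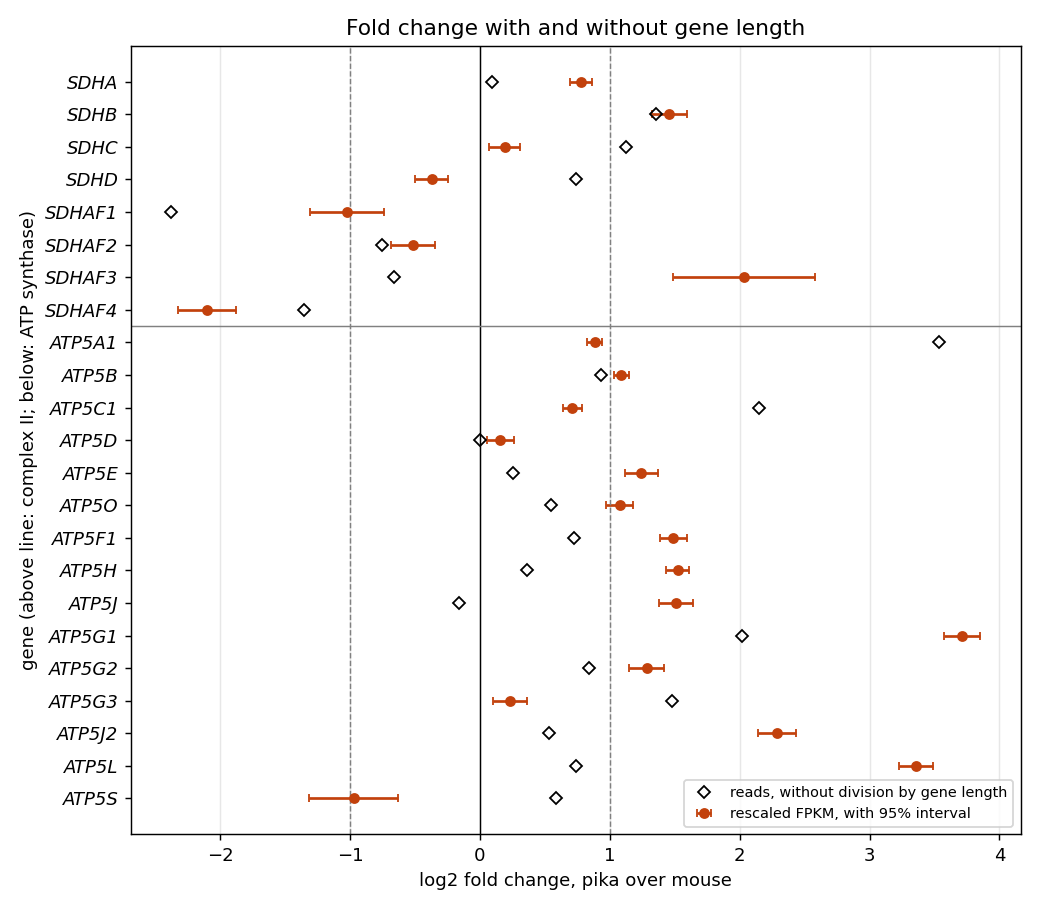
Log2 fold change of pika over mouse for each gene, from rescaled FPKM with its 95% interval (filled circles) and from reads without division by gene length (open diamonds); dashed lines mark the fold minimum of 1. SDHB, SDHAF1, SDHAF4 and ATP5G1 were called on both scales in the same direction, while ATP5L was at 3.36 by FPKM and 0.74 without length. SDHAF1 lay at the fold minimum by FPKM, and its value without length is uncertain because its recovered pika length may be too short.

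Of the 3 c subunit genes 2 were called higher, with fold changes that ran over a wide range. ATP5G1, on mouse chromosome 11 from 96072793 to 96075694, was at 518, 529 and 505 in pika, against 37.8, 42.4 and 35.8 in mouse. Its mean was 13.4 times as high in pika, with a log2 fold change of 3.71 (SE 0.06, adjusted p = 5.64e-11 by limma-trend), the largest of the 23 genes on this scale. It was also called without gene length (2.02). ATP5G2 was at 340.4, 351 and 329 in pika, against 129, 152 and 137 in mouse (1.28; 0.84 without gene length, not called). ATP5G3 was at 296, 296 and 292 in pika, against 229, 252 and 272 in mouse (0.23, not called), but at 1.48 and called higher without gene length.

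The main source of c subunit RNA therefore differed by FPKM. ATP5G1 was 44.9% ± 0.0541 of the sum of the 3 genes in pika and 9.03% ± 0.844 in mouse (9.53%, 9.51% and 8.06%). ATP5G3 was 25.7%, 25.2% and 25.9% in pika against 57.9%, 56.4% and 61.2% in mouse, and ATP5G2 took 29.5% ± 0.341 in pika and 32.5% ± 1.67 in mouse. In reads, not divided by length, ATP5G3 held most in both species, with 56.0% ± 0.490 in pika and 56.4% ± 2.72 in mouse. The ATP5G1 share in reads was 28.6% ± 0.214 in pika and 19.6% ± 1.70 in mouse, so it was higher in pika on both scales by different amounts. The ATP5G1 model had 731 bases in pika and 4912 in mouse, and that of ATP5G3 2516 and 2181. These genes are similar in their coding parts, and how reads that match several of them were counted is not stated, so their split is uncertain.

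**Figure D3:**
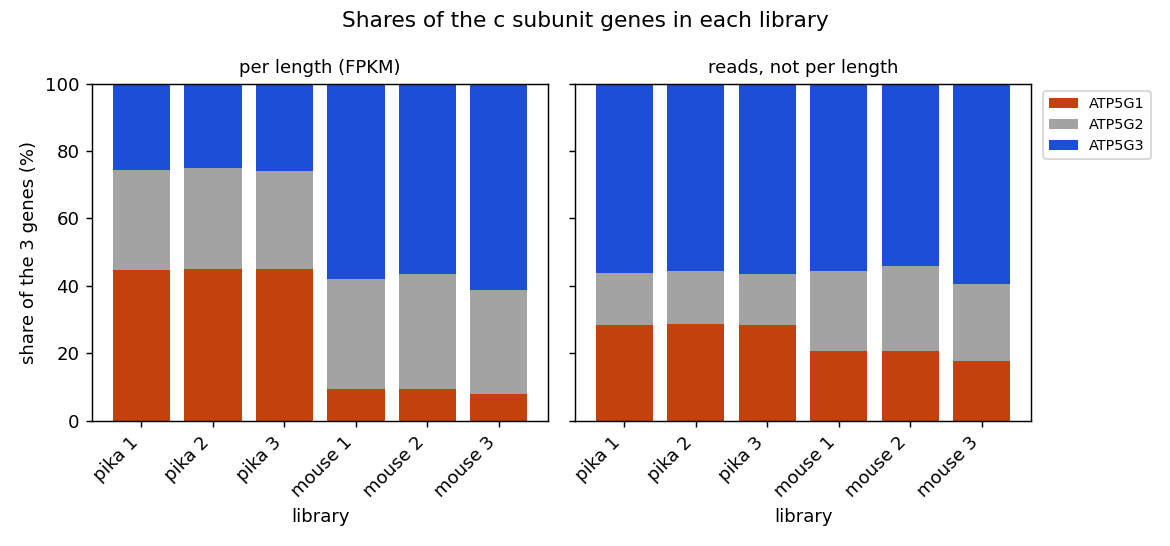
Share of ATP5G1, ATP5G2 and ATP5G3 in their sum in each pika and mouse library, from FPKM (left) and from reads (right). The ATP5G1 share was 44.9% in pika and 9.03% in mouse by FPKM, and 28.6% in pika and 19.6% in mouse by reads.

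The fold changes moved with the lengths of the gene models. Among the 14 ATP synthase subunits, the Spearman correlation of log2 fold change and length ratio (mouse over pika) was 0.91. It was 0.63 over all 23 genes and 0.18 over 10153 tested genes with lengths. This is a correlation across genes, which are not replicates, and both measures contain the length. Where the mouse model was 4 or more times as long, 7 of 8 of these genes were called higher, and 41.2% of all genes were. At 2 to 4 times it was 5 of 8, against 30.2% of all genes, and under 2 times 0 of 7, against 21.8%. The median ratio was 2.80 for these genes and 2.25 for all. Lengths and reads were worked out from the steps of the FPKM values as the smallest whole numbers that meet all 3 libraries, so the true length and reads may both be a multiple. Such cases may be ATP5A1, with 1916 bases in pika and 627 in mouse, and SDHA, with 1167 in pika and 3883 in mouse. The short pika models of ATP5J (236 bases), SDHAF3 (275), ATP5H (318) and SDHAF1 (321) may be such cases too. For all these genes the length ratios and the values, calls and sign changes without gene length are uncertain. Other genes may be affected in the same way.

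**Figure D4:**
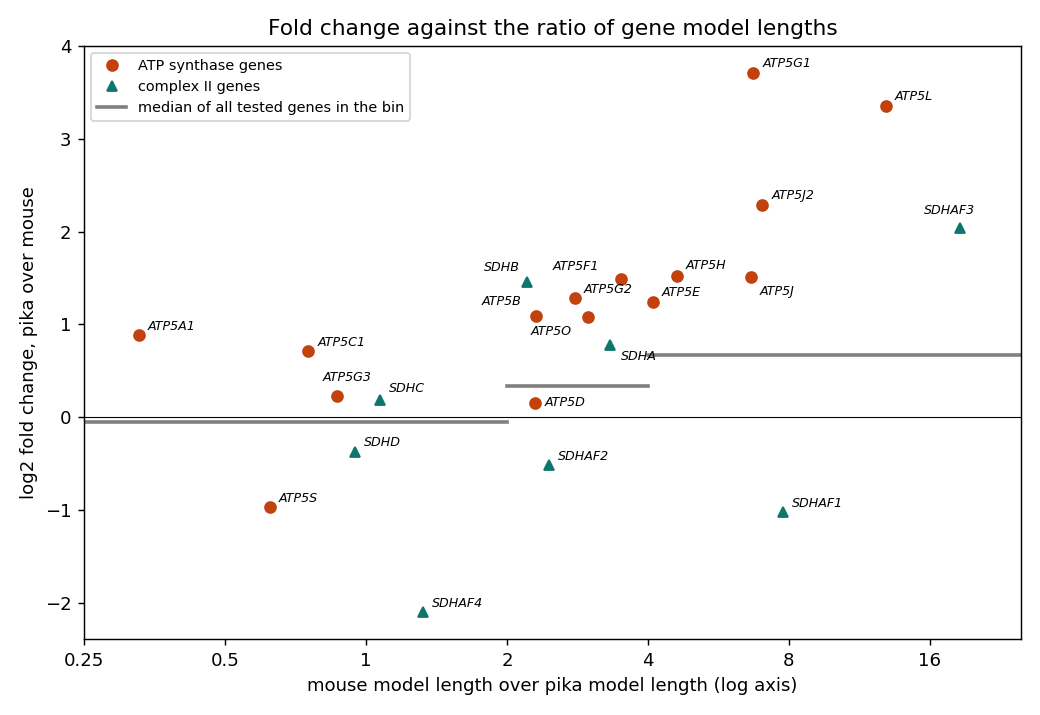
Log2 fold change of pika over mouse against the ratio of mouse to pika gene model length (log axis) for the ATP synthase genes (circles) and complex II genes (triangles); grey lines give the median of all tested genes under 2, at 2 to 4 and at 4 or more. ATP5L at a ratio of 12.9 and ATP5G1 at 6.72 lie highest, and SDHAF1 at 7.76 lies below 0.

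The order of the genes by level was partly shared. ATP5B and ATP5A1 ranked 1 and 2 in both species, and ATP5G2 ranked 11 in both. ATP5G1 ranked 4 in pika and 20 in mouse, ATP5L 7 and 19, ATP5G3 14 and 5, and SDHD 18 and 7. The Spearman correlation of the mean levels between species was 0.59 over the 23 genes and 0.62 over all tested genes. Within ATP synthase the highest subunit was 8.53 ± 0.231 times the lowest in pika and 22.0 ± 1.74 times in mouse.

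Genes that serve these complexes were measured in the same fit. Beside the counts of this and the following lists stand 28.7% called higher and 23.5% called lower over all tested genes. The list of ATP synthase assembly and regulation had 1 of 7 genes higher and 1 lower. ATPAF2, an assembly factor of the F1 head, averaged 66.3 ± 8.40 in pika against 27.5 ± 2.11 in mouse and was higher (1.24). TMEM242, which helps to build the c ring, was lower (-1.30). USMG5, a further membrane subunit, averaged 487 ± 9.07 in pika against 739.9 ± 16.0 in mouse (-0.60, not called), against the direction of ATP5L and ATP5J2. Without gene length USMG5 changed sign (0.78). In the list of complex III assembly 2 of 5 were higher, with LYRM7 at 2.52 on 186 pika and 28 mouse reads and PHB2 at 1.31 (0.94 and not called without gene length), and none lower. In that of complex IV assembly 5 of 12 were higher and 2 lower, with SLIRP (2.93) and LRPPRC (2.41), which stabilise mitochondrial mRNAs, and CMC1 (-2.37) the most changed.

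Other routes to and through ubiquinone were also measured. Of 5 tested genes for electron entry outside complexes I and II, DHODH of pyrimidine synthesis was higher (2.57) and ETFB, part of the electron carrier of fatty acid oxidation, lower (-1.70). Of 11 genes of coenzyme Q synthesis 4 were higher and none lower, led by PDSS1 (3.30), COQ7 (2.19) and PDSS2 (2.07). COQ7 lost its call without gene length (0.33).

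The list of regulators of these genes, which also held NDUFA4 and NDUFA4L2, had 6 of 18 genes called higher and 1 lower. NDUFA4 was among those higher (1.26; 0.89 and not called without gene length), and NDUFA4L2 was the gene called lower. The coactivator PPARGC1B averaged 26.7 ± 1.86 in pika against 1.07 ± 0.332 in mouse (3.75; 461 and 11 reads), and TFAM, which packs and transcribes mitochondrial DNA, at 120.5 ± 2.47 in pika and 23.9 ± 2.44 in mouse (2.29). NDUFA4L2, known as a hypoxia-induced gene, was called lower, with 3 reads in all pika libraries and 89 in all mouse libraries. NRF1 (0.64) and GABPA (-0.90), whose motifs were counted above, were not called. Without gene length NRF1 changed sign (-0.73) and GABPA was called lower (-1.20). Of 14 genes of mitochondrial content 6 were higher and 1 lower. The citrate synthase gene CS, at 361 ± 8.70 in pika and 346 ± 11.3 in mouse, and the channel gene VDAC1 overlapped between species (0.06 and 0.07). Without gene length CS was called higher (1.16) and VDAC1 was at -0.45. VDAC3 (2.81) and TOMM40 (2.10; 0.73 and not called without gene length) were higher, and the ADP/ATP carrier SLC25A4 of muscle and heart was lower (-1.93). Genes with NDUF symbols, most of them for complex I, had 13 of 45 higher and 3 lower, with a median of 0.49. They were taken by symbol and include assembly factors (NDUFAF), NDUFA4 and NDUFA4L2, so NDUFA4 and NDUFA4L2 are counted in both lists. Without gene length the numbers higher and lower were 1 and 2 for ATP synthase assembly and regulation, 2 and 1 for complex III assembly, and 5 and 1 for complex IV assembly. They were 1 and 1 for electron entry, 3 and 0 for coenzyme Q, and 9 and 2 for the list of regulators. For mitochondrial content they were 7 and 1, and for NDUF symbols 15 and 7. Over all tested genes 26.1% were called higher and 27.6% lower without gene length. No test compares these lists with the 23 genes or with all tested genes.

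The cultures also differed in state. All 13 tested proliferation genes were higher in pika, with summed levels of 3555 to 3640 in the pika libraries and 400.4 to 411 in the mouse libraries, and the part of this in the results above was not tested. Of 12 fibroblast markers 10 were in both tables, and their sum was 12646 to 13051 in pika and 14110 to 14502 in mouse. Members went both ways, with 2 higher and 3 lower. COL3A1 averaged 22.9 ± 1.44 in pika against 955 ± 16.4 in mouse, PDGFRA 3.47 ± 0.340 against 65.1 ± 4.21, and PDGFRB, whose call was lost without gene length (-0.65), 187 ± 4.33 against 387 ± 1.97. FAP averaged 41.7 ± 0.966 in pika against 1.23 ± 0.661 in mouse, and DCN 269 ± 13.3 against 115 ± 13.8. COL1A1, the highest, was at 4787 ± 129.9 in pika and 4811 ± 117 in mouse. Of 13 muscle markers 11 were in both tables, with sums of 4.12 to 5.51 in pika and 208 to 236 in mouse, where ACTA1 at 198 ± 17.9 made up most. CKM was listed at 0 in all 6 libraries and MYOG in the 3 of pika. The 5 keratinocyte markers in both tables summed to 1.14 to 1.25 in pika and 56.4 to 64.2 in mouse. KRT5, KRT14 and KRT10 were listed at 0 in every pika library, and in mouse KRT5 and KRT14 averaged 0.220 and 0.210. Adipocyte markers (8 of 8) summed to 0.960 to 1.69 in pika and 61.6 to 63.6 in mouse, endothelial markers (6 of 6) to 0.707 to 1.60 and 32.3 to 39.3, macrophage and leukocyte markers (6 of 6) to 14.5 to 15.2 and 34.8 to 43.7, and melanocyte markers (5 of 6) to 68.1 to 78.5 and 54.8 to 58.3. UCP1, PTPRC and PECAM1 were at or near 0 in both species. The part of these differences in the results was not tested.

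Another 2 pika genes met the symbol pattern and were matched to mouse genes by RefSeq synonyms. ATP5I, subunit e of ATP synthase (mouse Atp5k), was at 462, 543 and 518 in pika, against 227, 199.7 and 194 in mouse and was called higher (log2 fold change 1.29, SE 0.07). Its recovered model had 225 bases in pika and 616 in mouse, with 1286 and 343 reads, and the pika length may be too short. No value without gene length was computed for it, so whether the call depends on length was not tested. ATP5SL (mouse Dmac2), an assembly factor of complex I despite its symbol, was at 10.6 to 18.9 in pika, against 9.87 to 16.9 in mouse. These libraries overlapped, and the gene was not called (0.22, adjusted p = 0.397 by limma-trend).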

How the data were processed

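RNA-seq of 3 pika and 3 mouse fibroblast libraries was used. The deposited tables hold 1 FPKM value per gene, made by the authors and named so in the file headers. The submitters' processing notes name CASAVA 1.9, STAR 2.6.1a, featureCounts and edgeR 3.28.1, in no order, and GRCm38 as the only build. The sources used here give no annotation for the pika.

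Pika rows carry symbols. Mouse Ensembl identifiers were named with a gene table (49326 of 49585 rows), and symbols found once in each table joined 14418 genes. These held about 87.1% of the pika FPKM and 37.0% to 38.3% of that in mouse, and were rescaled in each library to 1000000 over the joined genes. Genes with a mean of 1 FPKM or more in a species (10348) were compared on log2(value + 1) by limma-trend, two-sided, with Benjamini-Hochberg adjustment, in limma 3.58.1 under R 4.3.3. Alternatives were median-of-ratios and TMM scaling, no rescaling, other pseudocounts and filters, no trend, no gene length, a replicate block and each library left out. Fold changes on this scale understate the change of low genes.

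Whole reads, model lengths and read totals were worked out from the steps of the FPKM values with a tolerance of 0.002 reads. They covered 95.7% of the totals in pika and 97.0% to 97.1% in mouse. On reads, replicate pairs had a mean chi-square per gene of 1.35 to 1.52 (pika) and 1.48 to 2.93 (mouse), where sampling alone gives about 1. No library is therefore a copy of another. These values cannot tell repeat libraries of the same culture from libraries of separate cultures. Rat and rabbit identifiers were not paired with symbols and were left out.

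The genes, lists and rules were chosen with earlier results of these data known. Every gene of the rule could be named, with values in every library for complex II subunits and isoform genes and, in each other class, for up to 6 called genes with the largest fold change and 3 with the highest level. From each further list up to 3 called genes with the largest fold change could be named, or 2 abundant ones. USMG5, CS, VDAC1, NRF1, GABPA and single cell type markers were named after their values were seen. The list of heme supply is not reported here. The test was checked on simulated data drawn from the mouse levels, with the same gene models in both groups. That check cannot address gene models that differ between species. Sequences are from RefSeq (GRCm38.p6). Other steps ran in Python 3.11.15 with scipy 1.17.1.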

Additional observations from a re-analysis of the deposited data

How the results depend on the processing

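The genes called higher numbered 12 by default and 10 with median-of-ratios scaling, 11 with TMM scaling and 18 in deposited FPKM without rescaling. Without division by gene length they numbered 6, a count that is uncertain because recovered lengths may be too short, as given above. Those called lower numbered 2 by default, 3 with median-of-ratios scaling, TMM scaling or a pseudocount of 0.1, where ATP5S gained a call, 0 without rescaling and 1 with a minimum of 5 FPKM, which left 21 of the 23 genes. Leaving out each library in turn gave 12 higher in every case and 1 to 3 lower. Over all genes, 2970 were called higher and 2433 lower, with 6029 and 1106 without rescaling (median log2 fold change 1.29), 1584 lower with a minimum of 5 FPKM, and 2940 to 2984 higher and 2416 to 2448 lower when a library was left out. Higher calls were 55% of all calls by default, 48.9% under median-of-ratios, 52% under TMM and 84.5% with no rescaling.

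Signs changed for ATP5D with median-of-ratios scaling (-0.0191). Without rescaling they changed for ATP5S (0.17), SDHAF1 (0.15), SDHAF2 (0.71) and SDHD (0.90). Without gene length they changed for ATP5J (-0.16), ATP5S (0.58), SDHAF3 (-0.66) and SDHD (0.74). ATP5B (0.91) and ATP5O (0.90) lost their calls with median-of-ratios scaling, and ATP5O (1.00, rounded from below) also with TMM. The cause was not tested beyond the construction of each alternative.

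No label says whether the replicate numbers in the titles pair the libraries. Deviations of same-numbered libraries correlated at -0.009, 0.048 and 0.009 over 10348 genes. No shared deviation was seen, but this cannot tell whether same-numbered libraries were handled together. With the number as a replicate block 12 genes were higher and 2 lower, as by default. Precision is limited most for SDHAF1, SDHAF3, SDHAF4 and ATP5S, which had 31, 56, 94 and 200 pika reads and 121, 54, 134 and 64 mouse reads.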
